A study of Arabidopsis thaliana with 12 samples.

Results

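The messenger RNA stored in dry seeds of wild-type Arabidopsis thaliana (accession Col-0) was described from 3 RNA sequencing libraries, all of the dry Col-0 libraries among the 12 of the series. The members were chosen by their labels alone, as the libraries of dry Col-0 seeds. Seeds were freshly harvested and were sequenced without any imbibition (water uptake). The series also holds 3 libraries each of dry seeds of the mutant erf4-1 and of Col-0 and erf4-1 seeds imbibed for 6 h, and none of these 9 entered any calculation here. The labels do not say whether separate plants or harvests gave the replicates, and the spread given below may be technical. Whole seeds were used, which hold the embryo, a single layer of endosperm and the dead seed coat, and in such bulk samples fewer cells of a type and less RNA per cell cannot be told apart.

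A seed that dries at the end of maturation keeps part of its RNA in a dry, inactive state for later use. During maturation the embryo fills protein storage vacuoles with globulins and albumins, packs oil into bodies coated by oleosins, and makes late embryogenesis abundant (LEA) proteins and small heat shock proteins that protect cells while they lose water. This programme is driven by abscisic acid (ABA) and by the B3-domain factors ABI3, FUS3 and LEC2 with LEC1, which act on promoters that carry RY elements and ABA response elements (ABRE).

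Levels are given as TPM (transcripts scaled to a common library total), that is, counts divided by the exonic length of the gene and scaled so that each library sums to 1000000. They compare genes per length, as shares of the RNA sequenced, and not as amounts per seed. The libraries held 37078043, 41820266 and 36960635 counts in replicates 1, 2 and 3, and values of single libraries are given in that order throughout. At these depths 3 counts in a gene of 1500 bases, the limit that a count of 0 allows, corresponded to 0.0686 to 0.0794 TPM, which covers counting error only. Of 32833 genes in the table, 14104 reached 1 TPM in all 3 libraries, and 13755 of these were nuclear protein-coding genes, which is 50.1% of that class. No count in any library was found for 10657 genes. Organelle genes took 0.0393 to 0.0674% of the counts.

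The promoters of 6 of the most abundant transcripts are shown first, because many of the highest genes carry the same sequence elements. The genes encode a defensin (LCR67), storage globulins (CRA1 and CRU3), a storage albumin (SESA3), an oleosin (OLEO1) and an LEA protein (GEA6). Each line gives the 200 bases before the annotated start of the gene, 5′ to 3′ on the coding strand, read from the RefSeq assembly TAIR10.1. Capitals mark the RY core CATGCA and the ABRE core ACGTG on either strand.
LCR67, chr1:28472157-28472356, plus strand: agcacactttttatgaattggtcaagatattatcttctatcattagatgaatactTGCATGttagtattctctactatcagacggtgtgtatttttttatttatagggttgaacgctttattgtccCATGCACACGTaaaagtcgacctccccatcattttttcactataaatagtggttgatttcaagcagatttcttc
CRA1, chr5:17758337-17758536, minus strand: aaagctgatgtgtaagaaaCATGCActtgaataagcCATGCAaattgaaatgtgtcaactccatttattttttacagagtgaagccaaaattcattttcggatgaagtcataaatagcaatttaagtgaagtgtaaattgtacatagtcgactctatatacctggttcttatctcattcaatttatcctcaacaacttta
CRU3, chr4:14087356-14087555, plus strand: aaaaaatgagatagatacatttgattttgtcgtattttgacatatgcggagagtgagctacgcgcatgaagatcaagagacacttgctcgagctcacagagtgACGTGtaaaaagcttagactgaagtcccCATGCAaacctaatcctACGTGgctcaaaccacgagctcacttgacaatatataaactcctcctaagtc
SESA3, chr4:13611596-13611795, plus strand: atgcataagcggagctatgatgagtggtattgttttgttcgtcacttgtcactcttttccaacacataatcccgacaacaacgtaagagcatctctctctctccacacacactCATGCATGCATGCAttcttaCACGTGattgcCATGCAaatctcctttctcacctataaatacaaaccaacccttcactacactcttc
OLEO1, chr4:12900230-12900429, plus strand: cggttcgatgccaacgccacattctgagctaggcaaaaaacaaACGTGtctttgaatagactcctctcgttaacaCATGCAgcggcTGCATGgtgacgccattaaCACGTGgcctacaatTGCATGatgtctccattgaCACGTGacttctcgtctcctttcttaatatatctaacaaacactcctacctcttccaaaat
GEA6, chr2:16780369-16780568, minus strand: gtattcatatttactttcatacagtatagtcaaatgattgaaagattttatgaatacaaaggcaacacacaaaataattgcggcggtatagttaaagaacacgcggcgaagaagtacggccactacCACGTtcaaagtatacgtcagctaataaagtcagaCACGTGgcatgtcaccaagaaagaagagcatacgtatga
In the LCR67 promoter, RY matches began 145 and 74 bases before the start, and the second of them adjoined an ABRE match. The SESA3 promoter held a run of 5 overlapping RY matches that began 87 to 79 bases before the start, and a sixth match 56 bases before it. The OLEO1 promoter held 3 RY matches, and the GEA6 promoter held ABRE matches only. CRA1 had 2 RY matches and no ABRE match in the 200 bases shown. These matches are descriptions of the letters and not evidence of a bound factor.

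A small number of genes held most of the stored RNA. The 10 highest genes together took 26.7, 28.9 and 29.9% of all TPM (28.5 ± 1.64%, SD, n = 3), and the 100 highest took 53.0 ± 2.80%. The number of genes needed to reach 50% of TPM was 97, 75 and 58, and for 90% it was 4446, 4203 and 3794. Replicate 3 was the most concentrated library and replicate 1 the least. By level, 99 genes averaged at least 1000 TPM and held 52.9% of the total. A further 939 genes between 100 and 1000 TPM held 21.2%, 7090 genes between 10 and 100 TPM held 22.7%, and 6880 genes between 1 and 10 TPM held 3.00%. The median gene of the table lay at 0.494 TPM, and the median of the genes at 1 TPM or more in all 3 libraries at 13.2 TPM. The highest transcript stood 6494 times above that second median.

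**Figure D1:**
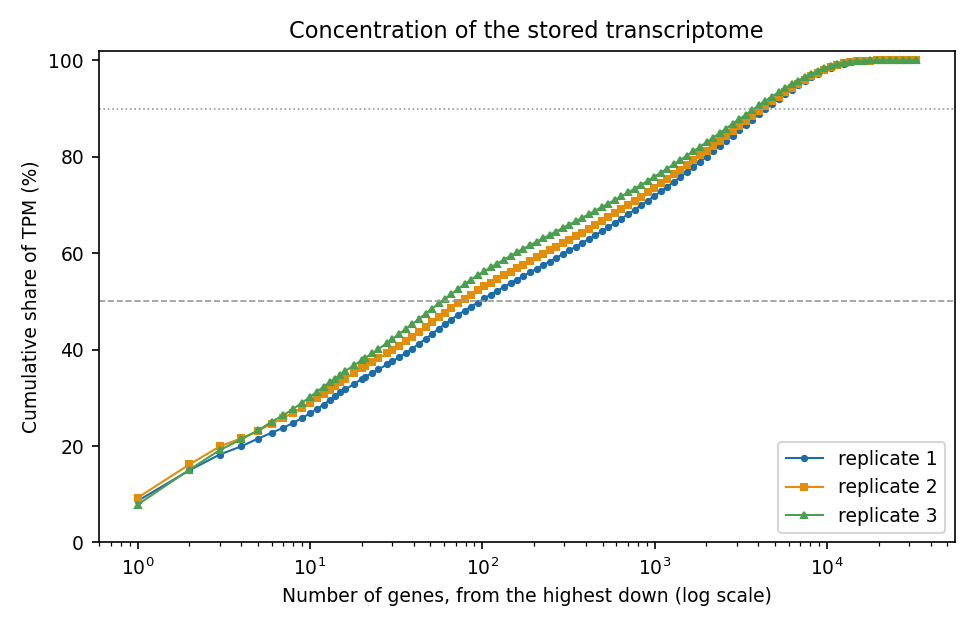
Cumulative share of TPM (%, y axis) against the number of genes counted from the highest down (x axis, log scale), with 1 line per dry Col-0 library. The dashed line marks 50% of TPM, reached with 97, 75 and 58 genes in replicates 1, 2 and 3, and the dotted line marks 90%.

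Per length, the most abundant transcript did not encode a storage protein, although by CPM, counts scaled to the library total and not divided by length, LCR67 at 25626 followed the storage genes CRA1 at 87820 and CRU3 at 45754. The transcript was that of LCR67 (AT1G75830), a low-molecular-weight cysteine-rich gene that encodes a plant defensin, a small secreted peptide of a family known for antifungal activity. LCR67 lies on chromosome 1 at 28472357 to 28472898 of TAIR10, on the plus strand. It stood at 86068, 92595 and 78312 TPM (85658 ± 7150, SD, n = 3), or 8.57% of the stored RNA. Its 3 values all lay above the 3 values of the next gene. The second of its family was PDF2.1, another defensin gene, at 3536, 3360 and 2516 TPM, and LCR67 exceeded it 24.3- to 31.1-fold within a library. Among 86 genes described as low-molecular-weight cysteine-rich or knottin, a group formed after the values were seen, 11 reached 1 TPM in all libraries, and the group summed to 8.95 ± 0.761% of TPM. The list matched by words to lipid transfer, defensin, thionin and protease inhibitor genes, which does not include LCR67, summed to 0.845 ± 0.0592% over 531 genes. Only 159 of those reached 1 TPM in all libraries, and the highest, the thionin gene AT2G15010, averaged 1074 TPM. A match of words does not show that each gene belongs to these classes. CBSX3, among the 4 highest members at 477.3 TPM, is not named as any of them.

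Storage globulins followed. All 7 genes of the list were detected, and together they held 11.7, 12.8 and 14.0% of TPM (12.8 ± 1.18%, SD, n = 3), the largest share among the 23 functional lists summed. CRA1 (AT5G44120, chromosome 5, 17756238 to 17758336), which encodes a subunit of the 12S globulin cruciferin, stood at 63594, 69237 and 72592 TPM. CRU3 (AT4G28520, chromosome 4, 14087556 to 14089796), a second cruciferin gene, stood at 32714, 37423 and 40856 TPM, and PAP85, which encodes a vicilin-like 7S globulin, at 15994, 16706 and 22051 TPM. The ranges of these genes did not overlap, so the order CRA1, CRU3, PAP85 held in every library. The remaining cruciferin gene, CRU2, was far lower at 1319, 1493 and 1425 TPM, and CRA1 exceeded it 46.4- to 50.9-fold. The ratio of CRA1 to CRU3 stayed between 1.78 and 1.94. The 3 other vicilin-like or cupin genes, AT2G28490, AT4G36700 and AT2G18540, averaged 2793, 356.6 and 195.9 TPM. For 6 of the 7 genes replicate 3 was the highest library, against 19.8% of all 14104 detected genes. Of the 99 genes at 1000 TPM or more, 59 were also highest in replicate 3.

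The 2S albumins, small sulphur-rich storage proteins, held 2.07, 2.43 and 2.25% of TPM, and all 5 genes were detected. SESA3 stood at 9361, 8747 and 7931 TPM and SESA5 at 7441, 9674 and 8234 TPM. These ranges overlapped, and the ratio of SESA3 to SESA5 ran from 0.904 to 1.26, so their order was not fixed. SESA1 averaged 3676 ± 1083 TPM and SESA2 1435 ± 249.9 TPM (SD, n = 3). SESA4 was lowest at 234.0, 327.5 and 289.2 TPM. SESA1, SESA2 and SESA3 are neighbours on chromosome 4, so adjacent copies differed severalfold in level. BETA-VPE, whose protease cuts storage protein precursors to their mature chains, averaged 1261 ± 51.1 TPM. Globulins and albumins together made up 15.1 ± 1.27% of the stored RNA.

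**Figure D2:**
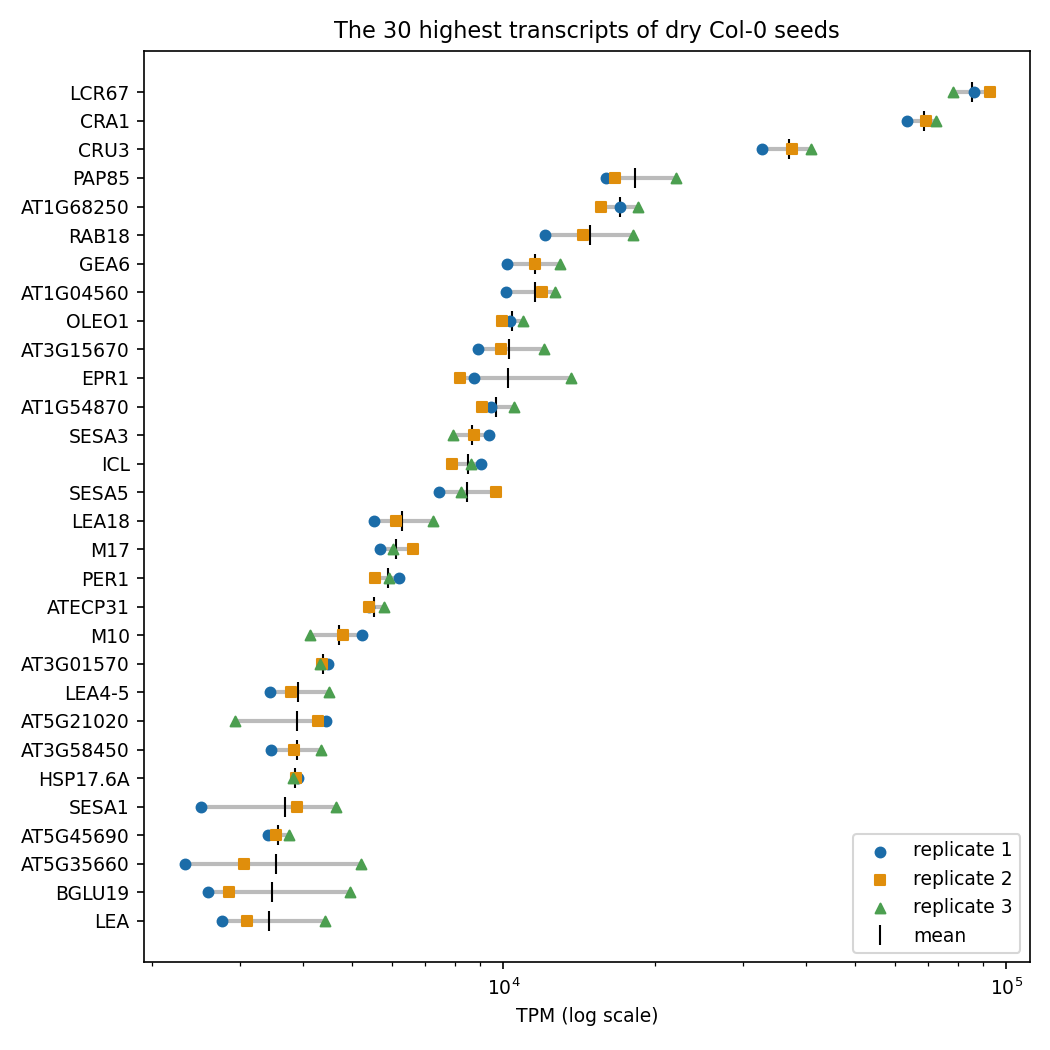
The 30 transcripts with the highest mean TPM in dry Col-0 seeds (y axis, gene symbols) and their TPM in each of the 3 libraries (x axis, log scale), where symbols are libraries, ticks are means and grey bars are ranges. LCR67, CRA1 and CRU3 stand apart from the rest and from each other, and most genes below them overlap their neighbours.

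Below the first 3 genes the ranges of neighbours mostly overlapped. An overlap of ranges over libraries can still go with the same order in every library, as for AT1G68250 above RAB18. Of the 29 neighbouring pairs among the 30 highest genes, 5 were separated without overlap. PAP85 was followed by AT1G68250, an uncharacterised protein gene, at 17023, 15647 and 18494 TPM. The dehydrin gene RAB18, the LEA gene GEA6 (also known as EM6) and the AWPM-19-like gene AT1G04560 came next. EPR1, an extensin-like gene known from the endosperm, stood at 8753, 8187 and 13646 TPM, with replicate 3 well above the other two. AT1G54870, which encodes a protein with an NAD(P)-binding fold, averaged 9676 ± 747.1 TPM. Further down were the oleosin gene AT3G01570 at 4385 ± 91.5 TPM and AT5G21020, an uncharacterised gene that encodes a protein of 42 amino acids, at 3883 ± 828.1 TPM. AT3G58450 averaged 3881 TPM, AT5G45690 averaged 3560 TPM, and the glycine-rich protein gene AT5G35660 averaged 3532 ± 1508 TPM. The beta-glucosidase gene BGLU19 averaged 3469 ± 1304 TPM. Of the 100 highest genes 51 stood in a functional list and 49 in none. Genes described as uncharacterised or by a domain of unknown function held 6.96 ± 0.137% of TPM over 4033 genes. Of these, 6 were among the 100 highest, including AT5G45690 and AT1G05510, whose descriptions name a protein beside the domain.

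LEA proteins are hydrophilic proteins that accumulate as the embryo dries. The 111 genes of this list held 8.34, 9.37 and 10.9% of TPM, and the 3 values were ordered as the concentration of the libraries was. Of these genes 57 reached 1 TPM in all libraries and 23 were among the 100 highest, whereas 27 had no count at all. AT4G13230 and AT3G53770 were among the genes without a count. The median member stood at 1.97 TPM, beside 1.48 TPM over nuclear protein-coding genes, so the share rested on a minority of the family. RAB18 (AT5G66400) stood at 12127, 14393 and 18068 TPM and GEA6 (AT2G40170) at 10191, 11571 and 12987 TPM. AT3G15670, of the LEA family, stood at 8909, 9891 and 12028 TPM. All 3 were highest in replicate 3 and lowest in replicate 1, as were LEA18 (6298 ± 881.1 TPM), LEA4-5 (3909 ± 549.6 TPM) and the dehydrin gene LEA (3425 ± 882.9 TPM). M17 and M10, neighbouring LEA genes on chromosome 2, averaged 6111 and 4720 TPM and did not share this order. Replicate 3 was the highest library for 32 of the 57 detected LEA genes (56.1%), against 19.8% of all detected genes. Of the 100 highest genes of any kind, 59 were highest in replicate 3, so this was not particular to LEA genes. ATECP31, a seed maturation protein gene, averaged 5538 ± 217.8 TPM. EM1, the paralogue of GEA6, was 7.70- to 9.20-fold lower than GEA6 within a library.

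Oil body proteins coat the lipid stores. The list of 12 genes held 2.06, 1.96 and 2.23% of TPM, and 11 genes were detected in all libraries. OLEO1 (AT4G25140), the main seed oleosin gene, stood at 10297, 9939 and 10960 TPM. OLEO2 averaged 3290 ± 129.4 TPM and OLEO4 2720 ± 268.1 TPM. Within a library, OLEO1 exceeded OLEO2 3.06- to 3.26-fold. AT1G05510, an oil-body-associated protein gene, averaged 3389 ± 395.3 TPM. AT5G45690, described by the same domain of unknown function, averaged 3560 TPM and is neither in this list nor in the wider one below. With all genes described as oleosin, caleosin or peroxygenase added, a choice made after the values were seen, 28 genes held 2.78 ± 0.157%. Storage, oil body and LEA protein genes together held 26.7 ± 2.65% of the stored RNA.

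Transcripts for using the oil were also stored. The list of oil breakdown and glyoxylate cycle genes held 1.62, 1.41 and 1.47% of TPM, and 17 of its 18 members were detected. ICL, whose isocitrate lyase diverts carbon from fatty acids towards sugar, stood at 9029, 7900 and 8604 TPM and was the 14th highest gene. MLS, for the partner enzyme malate synthase, stood at 2214, 1978 and 2009 TPM, and ICL exceeded it 3.99- to 4.28-fold. PKT3, for the peroxisomal thiolase of fatty acid oxidation, averaged 1141 ± 124.7 TPM and PCK1, for a gluconeogenic carboxykinase, 823.1 ± 75.3 TPM. PMDH2, for a peroxisomal malate dehydrogenase, was the member below 1 TPM, at 0.599 ± 0.282 TPM. The list's median was 191.3 TPM, beside 1.48 TPM over nuclear protein-coding genes. Of the 16 glycolysis and fermentation genes 12 were detected, and together they held 0.201 ± 0.0201% of TPM. ADH1, for alcohol dehydrogenase, averaged 586.2 ± 19.5 TPM and SUS3, for a sucrose synthase, 472.2 ± 39.1 TPM, while FBA5 averaged 0.0716 TPM and SUS4 had no count.

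**Figure D3:**
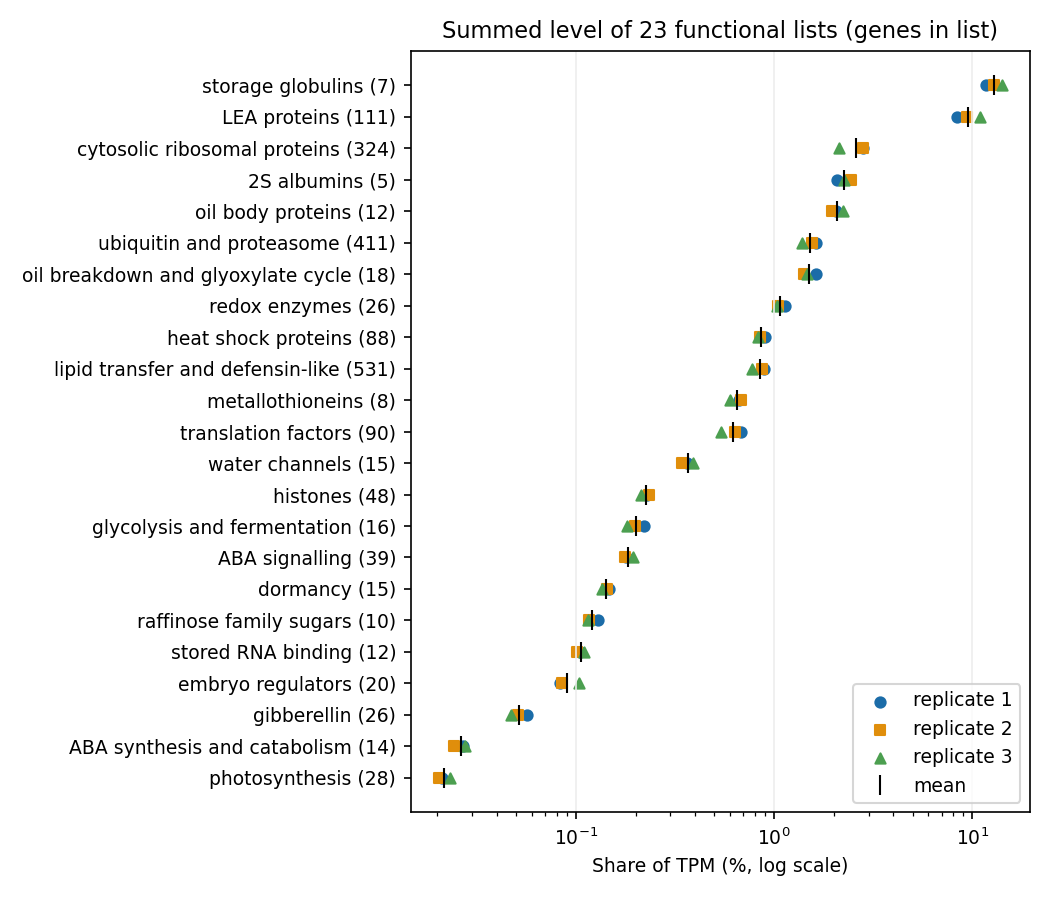
Share of TPM (%, x axis, log scale) held by each of 23 functional lists (y axis, number of genes in the list in brackets), where symbols are the 3 dry Col-0 libraries and ticks their means. Storage globulins lead with 12.8%, followed by LEA proteins with 9.55%, and photosynthesis genes are last with 0.0216%.

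Transcripts for chaperones, redox enzymes and water channels each had 1 leading gene. The 88 heat shock protein genes held 0.861 ± 0.0400% of TPM, 60 of them detected, and HSP17.6A alone made up 44.8% of that. HSP17.6A, for a small cytosolic chaperone, stood at 3904, 3863 and 3813 TPM. HSP70 followed at 609.6 ± 24.9 TPM, Hsp70b at 572.9 ± 89.4 TPM and HSC70-1 at 399.1 ± 81.9 TPM. Redox enzyme genes held 1.07 ± 0.0610% of TPM, with 25 of 26 detected. PER1, the seed-specific peroxiredoxin gene, stood at 6199, 5567 and 5914 TPM and made up 55.0% of the list. The list lacks CAT2, whose symbol belongs to more than 1 gene, and the superoxide dismutase gene AT3G56350, at 2866, 2711 and 2867 TPM. With all genes described as catalase or superoxide dismutase added, after the values were seen, 31 genes held 1.46 ± 0.0679% and PER1 made up 40.3 ± 1.25% of it. CAT3 was the highest catalase gene at 1546, 1322 and 1318 TPM, followed by CAT2 at 1092, 1057 and 1036 TPM, and CAT3 exceeded CAT1 9.72- to 14.3-fold. GPX6 and TPX1, for peroxidases that use thiols, averaged 1316 and 1089 TPM. Metallothioneins, small metal-binding proteins, held 0.648 ± 0.0426%, led by the seed-type gene AtMT4b at 3112 ± 196.9 TPM and by MT2A at 2711 ± 651.8 TPM, with MT1A without a count. Of the water channels, TIP3;1, for the aquaporin of storage vacuoles, averaged 2672 ± 239.5 TPM and made up 73.0% of its list. BETA-TIP, the related gene, averaged 755.8 ± 126.7 TPM, and TIP2;2 and DELTA-TIP, for vacuolar channels of vegetative tissue, had no count. Galactinol synthase genes of the raffinose pathway, whose sugars accumulate in drying seeds, averaged 567.2 ± 45.2 TPM for GolS1 and 384.2 ± 15.3 TPM for GolS2, whereas GolS3 had no count.

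Of 9 regulatory genes examined in every library, ABI5 was the highest, at rank 222 among all genes. ABI5, a bZIP factor of ABA responses, stood at 352.9, 340.6 and 448.2 TPM. HSFA9, a seed-specific heat shock factor, stood at 132.6, 150.8 and 249.2 TPM, and ABI3 at 65.1, 63.7 and 74.3 TPM. DOG1, on which the depth of dormancy depends, stood at 32.3, 43.4 and 32.4 TPM. FUS3 stood at 20.1, 19.5 and 27.6 TPM, ERF4 at 16.1, 12.8 and 10.7 TPM and ABI4, an AP2-type factor of ABA responses, at 5.81, 9.15 and 6.15 TPM. Each of these 7 genes was separated from the next without overlap between libraries, in the order given. LEC1 and LEC2, which act early in embryo maturation, had no count in any library, which allows up to 0.123 TPM for LEC1 and up to 0.0905 TPM for LEC2. The 20 embryo regulators together held 0.0905 ± 0.0113% of TPM, with 14 detected.

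ABA signalling genes held 0.184 ± 0.00871% of TPM, and 33 of 39 were detected in all libraries. AHG1, for a seed-expressed protein phosphatase that restrains ABA signalling, was the highest at 429.0, 466.1 and 568.4 TPM. It exceeded ABI1, another phosphatase of the clade, 20.0- to 47.3-fold. SNRK2.2, for a kinase of the pathway, averaged 110.9 ± 13.0 TPM and EEL, for a bZIP factor related to ABI5, 109.1 ± 8.88 TPM. ABF3 and PYL6 were at 0.0378 and 0.0306 TPM. Among the 14 genes of ABA synthesis and breakdown, ABA1, for zeaxanthin epoxidase, averaged 193.5 ± 18.6 TPM and made up 73.6% of the list. CYP707A2, for an ABA hydroxylase of seeds, stood at 12.7, 16.6 and 15.5 TPM, AAO3 averaged 4.65 TPM, and CYP707A4 had no count. In the dormancy list of 15 genes, SOM, for a zinc finger protein that represses germination in the dark, stood at 1013, 972.2 and 918.1 TPM, 68.2% of the list's total. AT4G11040, known as RDO5, averaged 126.0 ± 5.83 TPM and TFIIS, for a transcript elongation factor, 89.4 ± 4.75 TPM. E12A11, known as MFT, averaged 47.8 ± 6.01 TPM. Gibberellin genes held 0.0517 ± 0.00511%, led by GA3, for ent-kaurene oxidase, at 168.9 ± 27.5 TPM and the receptor gene GID1A at 147.8 ± 8.41 TPM. RGL3, for a DELLA repressor, averaged 36.9 ± 3.87 TPM, and GA2OX4 and GA2OX7 had no count.

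Among 1130 genes described as transcription factors 420 were detected, and they held 1.51 ± 0.0331% of TPM. The highest was ATAF1, a NAC factor, at 1949, 1861 and 1906 TPM, the only one among the 100 highest genes. It was followed by the GATA-like gene AT1G02700 at 753.0 ± 127.3 TPM, the PLATZ gene AT1G21000 at 682.5 ± 27.4 TPM and the ethylene-response-type gene EBP at 588.7 ± 69.1 TPM. Next came the PLATZ gene AT1G76590 (424.6 TPM), ABI5, the MADS-box gene AGL67 (321.0 TPM) and WRKY15 (312.5 TPM). BTF3 (275.8 TPM), whose name comes from a transcription factor but which belongs to a complex on nascent proteins, and the MYB-like gene AT1G35516 (221.1 TPM) closed the first 10.

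**Figure D4:**
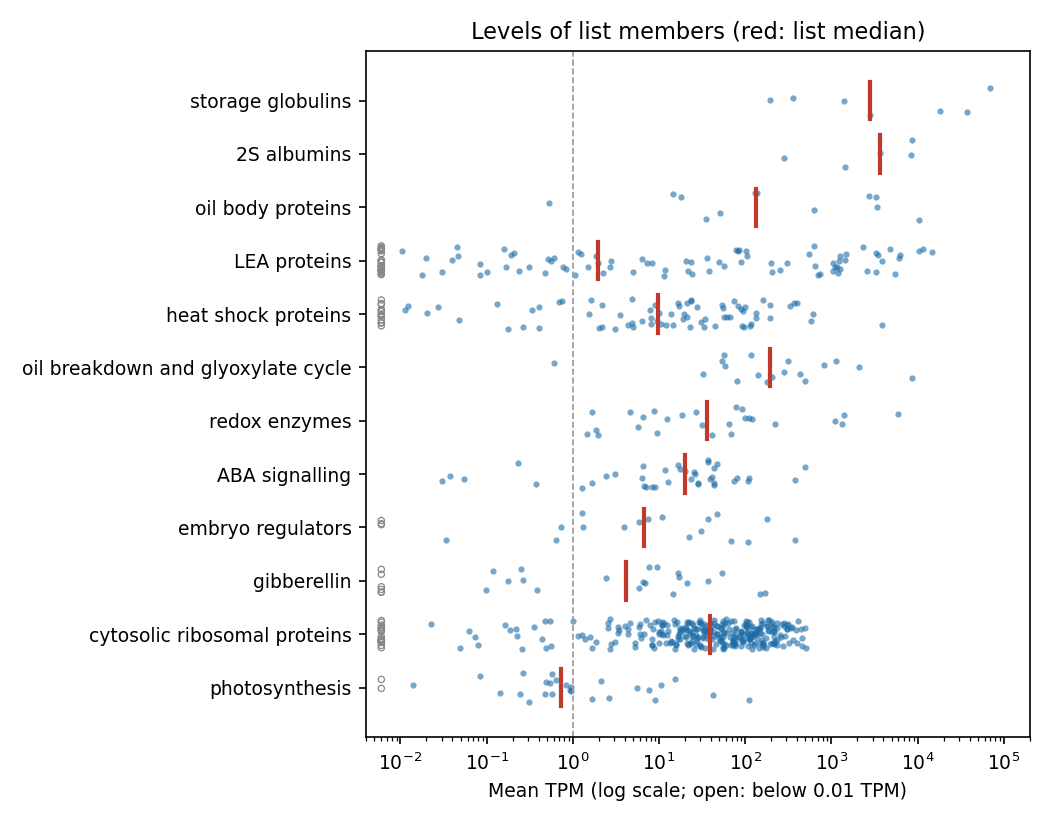
Mean TPM over the 3 dry Col-0 libraries (x axis, log scale) of every gene in 12 functional lists (y axis), where points are genes, red bars are list medians, open points at the left edge are genes below 0.01 TPM and the dashed line is 1 TPM. The LEA proteins spread from no count to 14863 TPM, whereas most ribosomal protein genes lie close together around a median of 39.1 TPM.

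The translation machinery was spread over many genes. The 324 genes matched to cytosolic ribosomal proteins by symbol or description held 2.80, 2.82 and 2.13% of TPM, and 282 were detected. Not a single member was among the 100 highest genes. A match of words does not show that each gene encodes a ribosomal subunit. The list's median was 39.1 TPM and its highest member, AT3G14595, at 506.8 ± 10.3 TPM, made up 1.96% of it. P40, for a protein of the small subunit, stood at 586.5, 521.8 and 384.8 TPM, AT5G02960 averaged 457.5 TPM and emb2386 456.0 TPM. Replicate 3 was the lowest library for 83.0% of the detected ribosomal protein genes, beside 58.4% of all detected genes. Translation factors held 0.617 ± 0.0709% of TPM, with 71 of 90 detected. Of these, AT4G27130, for an initiation factor, averaged 553.1 ± 28.1 TPM and AT5G60390, for an elongation factor, 536.7 ± 90.9 TPM. The 411 ubiquitin and proteasome genes held 1.52 ± 0.127%, led by the polyubiquitin genes UBQ3 at 2391, 2246 and 1615 TPM and UBQ10 at 1151, 1217 and 1119 TPM. Histone genes held 0.225 ± 0.0113%, and the highest was the H2B-type gene AT1G08170 at 477.1, 541.4 and 650.2 TPM. Among 12 genes of RNA-binding proteins studied in seeds or cold, CCR1 (also known as GRP8) averaged 369.2 ± 82.9 TPM and the poly(A)-binding protein gene PAB2 240.9 ± 35.6 TPM, and PUM9 and PUM10, for PUF-type RNA-binding proteins, had no count.

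Photosynthesis genes were at the other end. The 28 genes held 0.0216 ± 0.00149% of TPM, and 10 were detected. Their median was 0.733 TPM, beside 1.48 TPM over nuclear protein-coding genes. LHCB4.1, for an antenna protein, averaged 110.7 ± 17.2 TPM and made up 51.2% of the list. RBCS1A, for the small subunit of Rubisco, averaged 42.7 ± 5.59 TPM, and LHB1B1 and RBCS2B had no count.

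Markers of the tissues a seed sample could hold were summed in the same way. The 7 embryo markers, all among the highest genes, summed to 13.6 ± 1.17% of TPM. They are storage, oleosin and LEA genes described above, so their high sum follows from the choice of markers. The marker lists differ in the kind of gene they hold, so their sums do not compare the tissues. Of 13 endosperm markers 6 were detected, and their sum of 8873, 8317 and 13771 TPM was 98.8% EPR1. Next were ICE1 at 55.3 TPM and MFT at 47.8 TPM, and of the markers of early endosperm AGL62 averaged 1.57 TPM and RGE1 and PHE1 had no count. The 14 seed coat markers summed to 38.7 to 42.0 TPM, with 5 detected, led by UGT80B1 at 13.9 ± 0.543 TPM, while TT12 averaged 0.0256 TPM. The 24 pollen and anther markers summed to 620.5, 338.0 and 314.2 TPM, 17 of them detected, and replicate 1 stood apart from the other two. AGP23, for an arabinogalactan peptide of pollen, stood at 231.8, 117.0 and 98.7 TPM and sks13, for a multicopper-oxidase-like protein, at 77.9, 42.3 and 47.6 TPM, whereas A7 and GRP19, of the anther wall, had no count. The 9 leaf markers summed to 54.6 to 60.9 TPM, with RBCS1A 73.3% of it. None of the 10 root markers and none of the 9 markers of the fruit wall and stem reached 1 TPM in all libraries, and these lists summed to at most 2.74 and 0.758 TPM. The part of other tissues in any level was not tested.

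The 3 libraries agreed closely but not equally. Pearson's r was taken on the log2(TPM + 1) scale across the 14104 genes at 1 TPM or more in all libraries. It was 0.990 between replicates 1 and 2, 0.977 between 1 and 3 and 0.982 between 2 and 3. These values are given as a description, since genes are not independent replicates. The median coefficient of variation was 12.9% for the 14104 genes at 1 TPM or more in all libraries. Replicate 3 was the farthest from the median in 6271 of 14104 genes. The names of the libraries end in the letter b for replicates 1 and 2 and in r for replicate 3, and what the letters stand for is not given in the labels. Their part in this spread was not tested. The most variable abundant transcripts were the glutathione S-transferase genes GSTF6, at 2644, 1769 and 449.5 TPM, and GSTF7, its neighbour on chromosome 1, at 2042, 1218 and 431.5 TPM. The peroxidase gene TPX2, the thionin-like gene AT1G25275, the chitinase gene AT2G43590 and the aspartyl protease genes AT1G03220 and AT1G03230 were likewise highest in replicate 1 and lowest in replicate 3, by 3.23- to 4.13-fold. The glycine-rich protein gene AT2G05580 ran the other way, at 1558, 2236 and 4164 TPM.

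The abundant transcripts were short. The 100 highest protein-coding genes had a median exonic length of 1023.5 bases, against 1811 bases for the other 13655 detected protein-coding genes. Their proteins had a median of 208.5 amino acids, against 391 over all 13755 detected protein-coding genes, and 48% of them had at most 200, against 17.1% of the other detected genes. The share with at most 2 exons was 45% against 21.9%. Weighted by TPM, the mean protein encoded by a stored transcript had 334.1 amino acids, beside 461.0 without weights. Since TPM divides by length, this description depends on the scale, and in CPM the order of the first genes was CRA1, CRU3 and then LCR67. Of the 100 highest genes by TPM, 85 were also among the 100 highest by CPM. Neighbouring genes on a chromosome formed 7 runs with 15 of the 100 highest protein-coding genes. These included GSTF7 with GSTF6, M17 with M10, AT3G22490 with ATECP31 and the dehydrin genes LTI30 with XERO1, and 6 of the 7 runs lay on a single strand. Neither count was set against that of all genes, so neither shows that abundant genes cluster.

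The promoters of the highest genes were searched from 250 bases before to 50 bases after the start, on both strands, for the motifs marked in the sequences above. The RY core CATGCA was present in 37% of the 100 highest protein-coding genes, against 9.72% of all 27443 windows. The ABRE core ACGTG was present in 66% against 26.7%, and the G-box CACGTG, which contains the ABRE core, in 40% against 7.68%. Both RY and ABRE cores were present in 27% against 2.91%, and neither in 24% against 66.5%. All 5 of the 2S albumin windows held both cores, as SESA3 shows, and 10 of 12 oil body genes and 5 of 7 storage globulin genes held the RY core. The ABRE core was present in 7 of the 12 oil body genes and 4 of the 7 storage globulin genes. Over all 111 LEA genes, 57 held the ABRE core and 18 the RY core. Of the 23 LEA genes among the 100 highest, 21 held the ABRE core and 5 the RY core. No difference between lists was tested. Ribosomal protein genes held the RY core in 4.94% and the ABRE core in 21.0% of 324 windows. These are shares of matching letters, and no binding was measured.

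**Figure D5:**
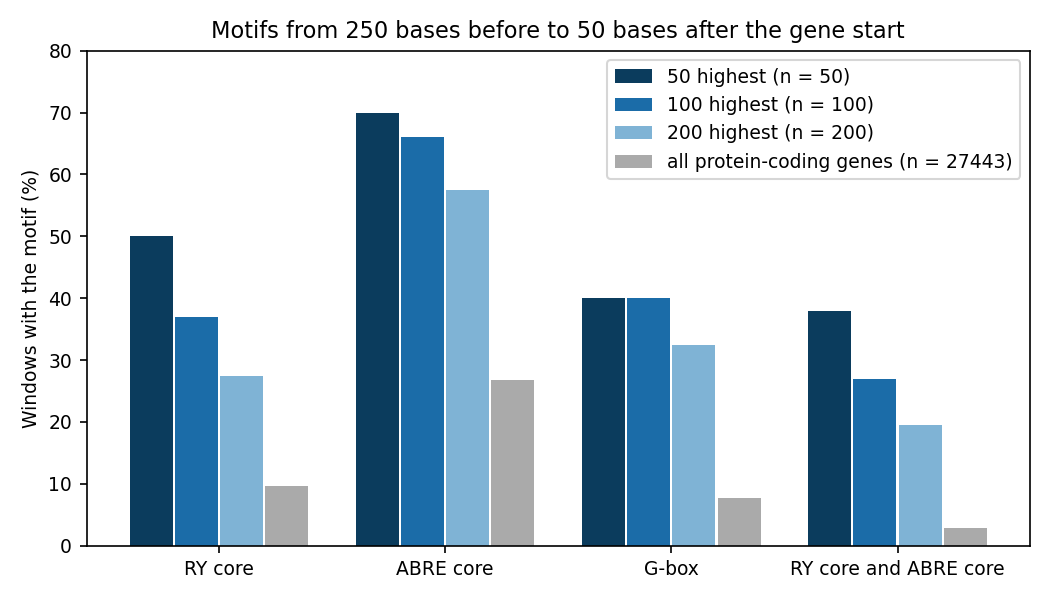
Share of windows (%, y axis) that hold each motif (x axis) among the 50, 100 and 200 highest protein-coding genes of dry Col-0 seeds and among all protein-coding genes (legend, with the number of windows). The RY core is present in 50, 37 and 27.5% of the windows of the 50, 100 and 200 highest genes, against 9.72% of all windows.

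Some levels are uncertain because reads could be shared. Among the 100 highest genes 17 overlap another gene, RAB18 and OLEO1 among them. A match to another gene of at least 95% identity over at least 100 bases was found for 6. For ATAF1, TIP3;1 and BGLU19 this match is the gene that overlaps them on the other strand, and not a copy elsewhere. MIR5642a, AT3G06355 and AT3G41768 have copies elsewhere. The overlapping partners of the genes checked averaged at most 42.7 TPM, the highest being beside AT3G03341, a cold-regulated protein gene.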

How the data were processed

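RNA was sequenced from 12 seed libraries, of which the 3 of dry Col-0 seeds were analysed, and the 9 count columns of the other groups were not used. The authors deposited raw counts per gene in 1 table that also gives gene positions and lengths, per the file headers. DESeq2 1.34.0, featureCounts 2.0.1, HISAT2 2.1.0 and fastp 0.20.0 are named with build TAIR10, per the submitters' processing notes. The parameters, strand setting and annotation release are not given in the sources used here, so reads of genes that overlap on opposite strands could not be told apart.

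Counts were divided by the length column and scaled to 1000000 per library (TPM) with Python 3.11.15, numpy 2.4.6 and pandas 2.3.3. Means and SDs are over the 3 libraries. There was no comparison between groups and no test, and 2 genes are called separated only where their ranges over the libraries do not overlap. Replicates were distinct libraries, since a chi-square over genes gave 21.7 to 82.0 for each degree of freedom between pairs. The calculation was run on counts simulated from known shares. The same lengths were used to simulate and to divide, so this checks the arithmetic and not the levels.

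Gene lists were matched by symbol or by description in RefSeq's TAIR10.1 annotation. Of 32548 nuclear genes 32532 had the same start and end there. After 8 symbols that belonged to other genes were dropped, 23 functional lists with 1854 genes remained. The members and lists were chosen with earlier results of these data known. Genes named are the 30 highest, up to 4 highest members of each list and up to 2 below 1 TPM, the 10 highest transcription factors, the 8 most variable genes above 100 TPM and a fixed set of seed regulators. Further genes named (PDF2.1, the remaining storage genes, BETA-VPE, EM1, CAT1, CAT2, AT3G56350, AGL62, ABI1 and pairs of neighbours) were chosen after their values were seen. Promoter windows were read from the TAIR10.1 genome, since tables of promoters and proteins were not used here, and protein lengths come from its coding sequences. Copies were sought with BLAST 2.17.0. Alternatives were CPM (no length scaling), effective length (length less 200 bases), subsets of genes, other detection limits, the median, and leaving out each library.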

Additional observations from a re-analysis of the deposited data

How the results depend on the processing

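The shares depended on how counts were divided by length and on which genes were summed. The 10 highest genes held 28.5% of TPM, but 24.7% in CPM, 31.2% with effective lengths and 34.8% without the 10113 genes that overlap another gene. The number of genes holding 50% was 76.7 on average, but 206.3 in CPM and 39.7 without overlapping genes, and for 90% it was 4148 and 2541 without overlapping genes. Removing those genes leaves fewer genes to sum over. LCR67 stood at 85658 TPM, but at 125135 with effective lengths and at 25626 CPM, where CRA1 reached 87820. The RY core was present in 50% of the 50 highest and 27.5% of the 200 highest promoters, beside 37% of the 100 highest. Of the 23 list shares, 21 moved by more than their SD in CPM, 17 without overlapping genes and 13 with effective lengths. All 23 stayed within their SD on the nuclear genes alone. They also did so without any single replicate, but that outcome was fixed in advance. Dropping a single value of 3 always moves a mean by less than its SD. Leaving out each library in turn gave 27.8 to 29.5% for the 10 highest genes, 66.5 to 86 genes for 50%, 3998.5 to 4324.5 genes for 90%, 14222 to 14661 detected genes and 36.8 to 38.7% for all lists together. No paired analysis was possible because a single group was described and no groups were compared. Depth limits the lowest levels, where 3 counts in a gene of 1500 bases are 0.0686 to 0.0794 TPM.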

Other observations

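Nuclear genes that do not encode proteins held a small share of TPM and a few stood high. AT3G41768, for the 18S ribosomal RNA, averaged 2560 ± 396.9 TPM (SD, n = 3), AT3G06355, annotated as other RNA, 2617 ± 271.7 TPM and the microRNA precursor gene MIR5642a 1986 ± 291.8 TPM. These 3 genes lie together on chromosome 3 between 14196774 and 14200076, and each shares sequence with copies elsewhere. MIR5642a and AT3G06355 lie on either side of the 18S gene, on the same strand. Whether their counts come from transcripts of the ribosomal RNA genes was not tested. Their levels are therefore not evidence of an abundant microRNA precursor or of a separate RNA. AT2G14878, also annotated as other RNA, averaged 2687 ± 260.4 TPM. Long non-coding genes held 0.513% of TPM over 3480 genes and transfer RNA genes 0.0142% over 625 genes.

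By chromosome, chromosome 1 held 28.4% of TPM with 26.4% of the genes and chromosome 5 25.1% with 22.4%. Chromosome 2 was at 13.5% with 15.8% of the genes. LCR67 lies on chromosome 1 and CRA1 on chromosome 5. All functional lists together held 37.7 ± 1.86% of TPM, so most of the stored RNA came from genes outside these lists. Besides LCR67, AT1G68250 and EPR1, these included the nitrile-specifier gene NSP2 (1989 ± 197.6 TPM), the xyloglucan-modifying gene XTH25 (2263 ± 660.2 TPM) and TCTP, for a translationally controlled protein (2816, 2637 and 1617 TPM). The papain-type protease genes AT4G11310 and AT3G54940 averaged 2887 and 2388 TPM. These genes were chosen after their values were seen.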
